A study of Danio rerio with 4 samples.

Results

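Among GFP+ cells sorted from zebrafish embryos, 195 of 5191 kept cells were selected by a set of myeloid genes. The set included the chemokine ligand gene ccl35.1 and the chemokine receptor gene cxcr3.2. A cell was selected when it held a unique molecular identifier (UMI, a counted transcript molecule) of at least 4 of 8 genes, namely ccl35.1, cxcr3.2, sftpbb, ncf1, rnaset2l, mef2b, spi1b and ctss2.2. It was left out when it held more than 2 of the granulocyte genes mpx, lyz, npsn, cpa5, mmp13a and mmp9. A further granulocyte gene of the rule, cebpe, was not used here. Kept cells had more than 200 and fewer than 4500 genes with a UMI and under 5% mitochondrial UMIs, out of 7677 called cells. The rule used the measured counts of the same cells, so levels in the selected cells against other cells are given as a description, with no test.

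Cells were taken from whole embryos at 3 days post fertilization (dpf). All embryos carried the transgene given in the labels as Tg(kdrl:EGFP)zf531Tg, where the study's methods name a kdrl:EGFP line s843. In it the promoter of kdrl, an endothelial Vegf receptor gene, drives EGFP. The WT libraries came from embryos with no further allele, and the flt1-/- libraries from carriers of flt1ka604, a mutant allele of the decoy Vegf receptor gene flt1. There were 2 libraries for each genotype, each from pooled embryos. Nothing states that the 2 libraries of a genotype came from separate clutches, so the p-values below measure the spread between these libraries, which may be technical.

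In zebrafish, myeloid cells arise from blood progenitors under transcription factors of the Spi1 family, and branch into macrophages, granulocytes and dendritic cells. Macrophages of the embryo are usually recognised by mpeg1.1, mfap4, marco, csf1ra and complement c1q genes, dendritic cells by flt3, batf3, xcr1a.1, zbtb46 and MHC class II genes, and neutrophils by mpx, lyz and npsn. CXCR3 receptors guide leukocytes along chemokine gradients, and in zebrafish macrophages cxcr3.2 takes part in their recruitment to infection.

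The 4 libraries held between 16828951 and 33837917 UMIs. Replicates 1 and 2 of WT held 21 and 77 selected cells, and those of flt1-/- held 48 and 49. Their median depth was 31849, 21422, 22644.5 and 17288 UMIs, above the 10957 to 16548 of the other kept cells, and a rule that counts detected genes selects deeper cells. Applied after each kept cell had been thinned to 1000 UMIs, the rule found 10 cells, of which 8 were among the 195. No doublet caller was run. Of the selected cells, 1 held UMIs of at least 3 endothelial genes, hemoglobin took at most 0.374% of a cell's UMIs, and 1 shared its barcode with a called cell of another library. The transcript of flt1 was present at 0 and 1 UMIs in the selected cells of the WT libraries and at 0 and 2 in those of the flt1-/- libraries. In the endothelial-gene cells defined below it stood at 286 and 163 CPM (the gene's UMIs in those cells of a library, scaled to a total of 1000000) in WT and 226 and 193 in flt1-/-. The ka604 lesion lies in exon 3 and the libraries read transcript 3′ ends, so this level does not check the genotype.

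The genes of the rule were spread unevenly over the cells. Of the 195 cells, 81 held 4 of the 8 genes, 55 held 5, 40 held 6, 17 held 7 and 2 held all 8. spi1b (ENSDARG00000000767), a Spi1 transcription factor gene that drives myeloid fate, was found in 94.9% of the cells, at 436, 740, 547 and 664 CPM in WT replicates 1 and 2 and flt1-/- replicates 1 and 2, the order kept for all values below. ncf1 (ENSDARG00000033735), which encodes an organiser of the phagocyte NADPH oxidase, was found in 84.1%, at 851, 971, 453 and 682 CPM. cxcr3.2 (ENSDARG00000041041) was found in 68.7% of the cells, at 290, 352, 263 and 423 CPM. Its level in the other kept cells was 28.1 ± 11 CPM (SD, n = 4 libraries of both genotypes). ccl35.1 (ENSDARG00000103466) was found in fewer cells, 43.1%, at 171, 205, 53.0 and 247 CPM. Of these genes, ccl35.1, mef2b, sftpbb and rnaset2l varied most between libraries. The MADS-box transcription factor gene mef2b was at 30.2, 183, 55.9 and 53.2 CPM, and rnaset2l, related to genes of a secreted ribonuclease, at 25.2, 128, 35.0 and 166 CPM. The cathepsin S gene ctss2.2 stood at 83.9 ± 29.6 CPM and the surfactant protein B related gene sftpbb at 138 ± 74.4 CPM.

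**Figure D1:**
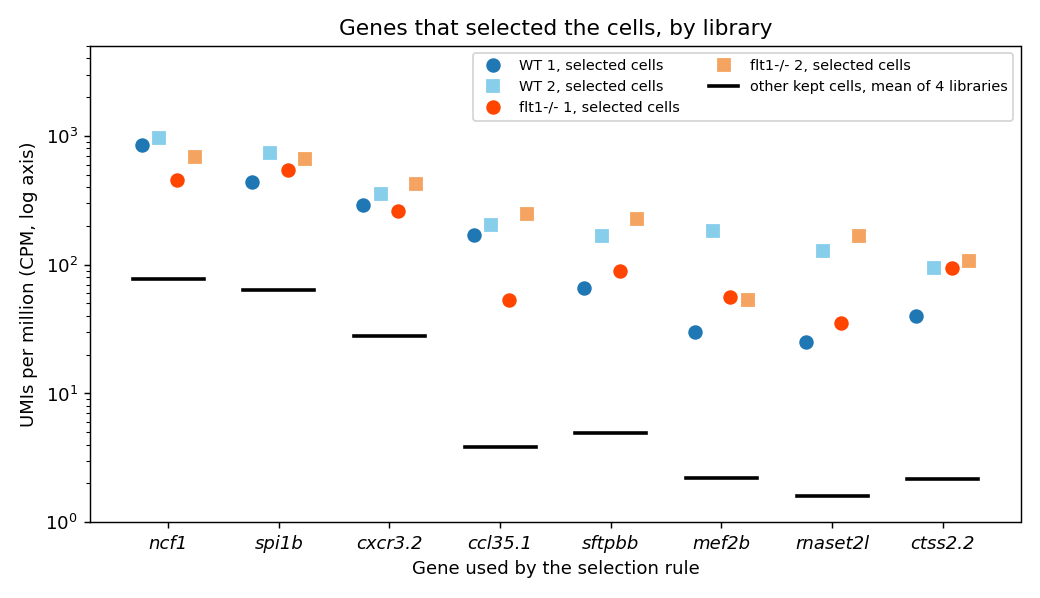
Levels of the 8 myeloid genes of the selection rule, in CPM on a log axis, with 1 point for each library's summed selected cells and a black line for the mean of the other kept cells over the 4 libraries. Every point lies above its line, which the rule itself brings about; ccl35.1 runs from 53.0 to 247 CPM and spi1b from 436 to 740 CPM.

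Cells just inside and just outside the rule were set side by side as a description. The rule counts ccl35.1, cxcr3.2, spi1b and lyz, so it favours the differences in these genes. The 81 cells with exactly 4 genes held 50.0 CPM of ccl35.1, 314 of cxcr3.2 and 646 of spi1b, and the 145 cells with 3 genes held 23.5, 246 and 328 CPM. Of genes outside the rule, ccr9a, described below, was at 1045 CPM with 4 genes and 799 with 3. The macrophage gene mpeg1.1 was at 13.9 and 2.06 CPM. On the granulocyte side, 29 selected cells held 2 granulocyte genes and 10 cells were left out with 3. The level of lyz, the lysozyme gene, was 421 CPM in the former and 6192 CPM in the latter.

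The label of a macrophage or a dendritic cell was then checked against their defining genes, and neutrophil genes were set beside them. Most macrophage genes were sparse. Of 22 listed genes, 4 were found in at least 10% of the selected cells, 15 were found in under 5%, and 75 cells held none of the 22. The 4 were mpeg1.1, which encodes a pore-forming protein of phagosomes, in 26.7% of the cells, the amino acid transporter gene slc7a7 in 25.6%, the iron exporter gene slc40a1 in 16.4% and the galectin gene lgals9l1 in 13.3%. Of the classes defined below, 3 listed genes passed 10% in the ccr9a, gata3 and il2rb cells, 2 in granulocyte-gene cells and 4 in endothelial-gene cells. The 2 that passed 25% of the selected cells were at least 2-fold higher than in the other kept cells in every library, as were 149 of 4356 genes. Their median ratio was 17.6, beside 1.02 over all genes. mpeg1.1 (ENSDARG00000055290) was at 11.7, 60.6, 18 and 53.2 CPM against 0.43 ± 0.44 CPM in the other kept cells. The receptor gene csf1ra, on which embryonic macrophages depend, had a UMI in 5 of 195 cells, mfap4 in 9, marco in 1, c1qa in 1, c1qb in 3 and c1qc in 1. All 5 cells with csf1ra were among the 52 with mpeg1.1. The paralogue csf1rb, which zebrafish blood progenitors also express, was in 91.8% of the cells, at 104, 219, 153 and 245 CPM.

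Of the dendritic list, genes that other leukocytes share were found in many cells, and the defining genes in few. Of 16 listed genes, 6 passed 10% of cells, beside 7 in the ccr9a, gata3 and il2rb cells and 5 in the granulocyte-gene cells defined below. Of the 5 that passed 25% of the selected cells, 1 was at least 2-fold higher than in the other kept cells in every library, and their median ratio was 1.08, beside 1.02 over all genes. The 6 that passed 10% of cells were led by cd83, a surface protein of activated antigen-presenting cells, in 80.0%, and nfil3-5 in 61.5%. The inhibitor of DNA binding gene id2a was in 46.2%, the NF-kappaB subunit gene relb in 44.1% and nfil3 in 41.0%. The cytokine receptor gene flt3, in 14.9%, was not among the 5 that passed 25%. cd83 was at 168, 297, 158 and 211 CPM, against 39.4 CPM in granulocyte-gene cells. The transcription factor genes irf8, batf3 and zbtb46 were found in 9, 4 and 7 cells and the chemokine receptor gene xcr1a.1 in 2. Among MHC class II genes, mhc2dab was found in 2 cells, mhc2a in 0 of 195, which allows a share of cells with a UMI, not of cells that express it, of up to 1.54%, and the invariant chain gene cd74b in 24.1%. Of 15 neutrophil genes, 8 passed 10% of cells and 94 cells held at least 3. In granulocyte-gene cells 13 passed 10%, in endothelial-gene cells 6 and in the ccr9a, gata3 and il2rb cells 4. None of the 15 is in the rule, though the rule limits other granulocyte genes. The summed level of the 15 was 970 to 1307 CPM against 10501 CPM in granulocyte-gene cells and 1555 CPM in endothelial-gene cells. It was 645 CPM in the ccr9a, gata3 and il2rb cells. Most of the sum in the selected cells came from 1 gene, srgn, at 852, 803, 722 and 682 CPM. The selected cells were given the name of none of these classes. The label ccl35.1/cxcr3.2 myeloid cells is taken from the genes that selected them and does not describe each cell. Of the 195, 43 held both ccl35.1 and cxcr3.2 and 20 held neither. With the genes of the rule left out, 117 clustered with cells led by p2rx1, ccr9b, il2rb and gata3, as described below.

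For comparison, 4 other classes of kept cells were taken by simple rules set after the data had been seen. They were 140 granulocyte-gene cells with at least 4 granulocyte genes, 230 cells with a UMI each of ccr9a, gata3 and il2rb, 1306 endothelial-gene cells with at least 4 endothelial genes, and 188 hemoglobin-rich cells with at least 20% hemoglobin UMIs. To set shares side by side, every cell was thinned to 5000 UMIs, which 192 of the selected cells reached. The thinned share of cells with mpeg1.1 was 10.4% in the selected cells and at most 0.752% in the other classes. The thinned share with cd83 was 55.2% in the selected cells, 9.02% in granulocyte-gene cells and 21.5% in the ccr9a, gata3 and il2rb cells. The granulocyte genes of the rule are limited by it, and differed among themselves. lyz was in 48 of the 195 cells and in 10.9% after thinning, below the 18.8% of endothelial-gene cells. mmp9, which encodes a matrix metalloproteinase, was in 51 cells and in 19.3% after thinning, against 39.8% of granulocyte-gene cells and 1.54% of endothelial-gene cells, and stood at 95.6, 417, 194 and 230 CPM against 48.8 CPM in the other kept cells. npsn and mpx were in 2.60% and 1.56% of the thinned selected cells, close to the 2.26% and 1.54% of endothelial-gene cells, a class that should lack them, and were in 89.5% and 70.7% of granulocyte-gene cells. The iron exporter gene slc40a1 was in 4.69% of the thinned selected cells and in 17.4% of endothelial-gene cells. Median depth before thinning was 20683 UMIs in the selected cells, 16210.5 in granulocyte-gene cells, 20247 in the ccr9a, gata3 and il2rb cells, 7920 in endothelial-gene cells and 19111 in hemoglobin-rich cells.

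**Figure D2:**
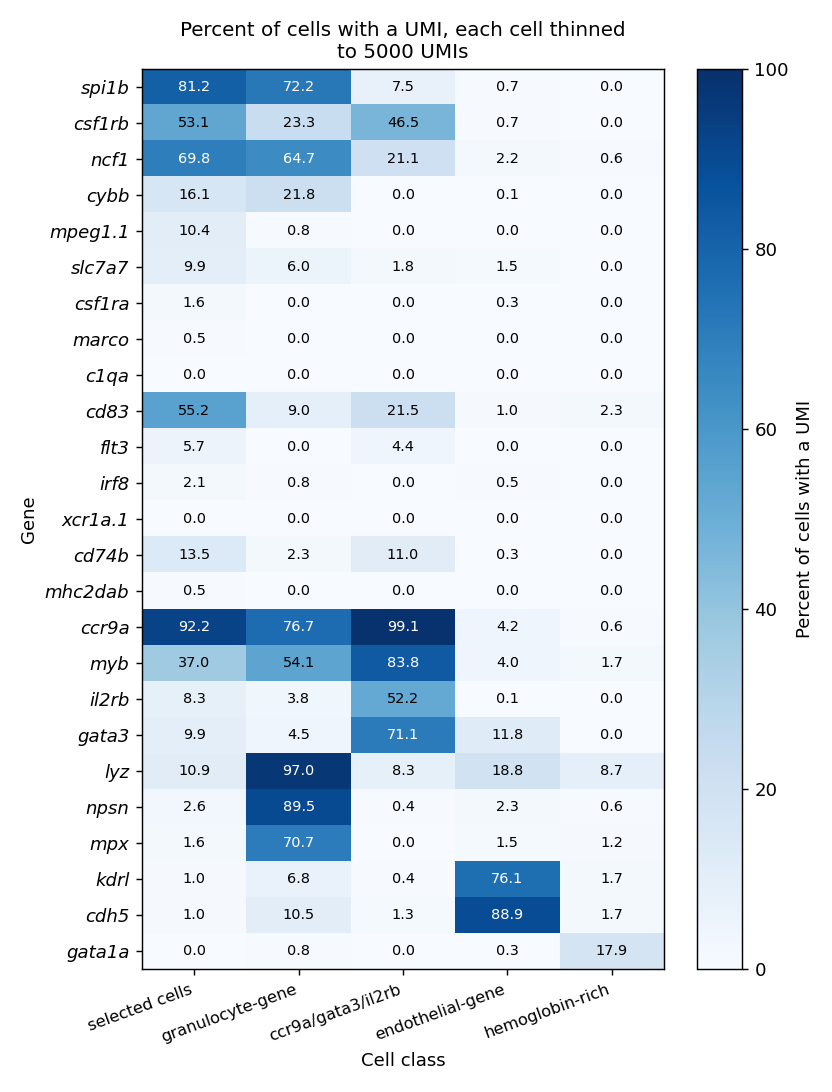
Percent of cells with a UMI of each gene (rows) after thinning to 5000 UMIs, in the selected cells and 4 comparison classes (columns), with the value printed in each field. The selected cells show 92.2% for ccr9a and 55.2% for cd83, 10.4% for mpeg1.1, and 1.6% or less for csf1ra, marco and c1qa.

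A lymphoid-associated receptor gene was almost universal. ccr9a, which encodes a receptor for the thymic chemokine Ccl25, was found in 97.4% of the selected cells, at 584, 1370, 1058 and 1025 CPM. The level in the other kept cells was 364 ± 66.4 CPM and in endothelial-gene cells 20.2 CPM. It was 1193 CPM in the ccr9a, gata3 and il2rb cells, which were chosen by a UMI of ccr9a itself. In 21 kept cells with at least 4 rule genes and 4 or more granulocyte genes it was 469 CPM. Other genes of the T, NK or innate lymphoid list were rarer: the costimulatory receptor gene tnfrsf9b was in 29.7%, il2rb in 21.5%, gata3 in 14.4% and il7r in 11.3% of the selected cells, and 4 of the 15 genes had no UMI. The thinned share with gata3 was 9.90%, no higher than the 11.8% of endothelial-gene cells, while that with il2rb was 8.33% against 0.103%. The progenitor transcription factor gene myb was found in 59.5% of the cells, at 128, 120, 221 and 141 CPM, below the 336 ± 66.5 CPM of the other kept cells in every library. The endothelial program was close to absent. Of 12 endothelial genes none reached 10% of cells, their summed level was 6.63 to 30.3 CPM against 6831 CPM in endothelial-gene cells, and kdrl itself was found in 5 cells although the sort used its promoter. EGFP was not analysed here.

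Phagocyte oxidase and leukocyte signalling genes were at higher levels in the selected cells than in the other kept cells, and granulocyte-gene cells shared this. The summed level of the NADPH oxidase genes was 1173 to 1938 CPM in the selected cells and 1766 CPM in granulocyte-gene cells. That of the leukocyte signalling genes was 4936 to 6551 and 8045 CPM. The oxidase sum includes ncf1 of the rule, at 851, 971, 453 and 682 CPM in the selected cells, so the selection itself raised it. Among 4356 genes with a UMI in at least 25% of the selected cells, 149 were at least 2-fold higher than in the other kept cells in every library, which is 3.42% of them. All 6 NADPH oxidase genes were, 1 of which, ncf1, is in the rule. cybb, the catalytic subunit, was at 45.3, 53.1, 27.5 and 61.5 CPM against 4.02 ± 2.30 CPM. In granulocyte-gene cells it stood at 69.1 CPM. Of 25 genes of leukocyte signalling and cytoskeleton that passed 25% of cells, 13 were at least 2-fold higher in every library, among them the actin regulator gene coro1a and the Fc receptor gamma chain related gene fcer1gl, at 158, 321, 241 and 310 CPM. Of 17 lysosomal genes that passed 25% of cells, 2 were. Outside the rule and the lists, the genes with the highest ratios were si:ch211-1o7.3 (32.1-fold, 46.6 ± 33.7 CPM), si:dkey-148a17.6 (16.5-fold), the organic cation transporter family gene slc22a21 (15.7-fold) and bpifcl, of the family of lipopolysaccharide-binding proteins (13.7-fold). The ratios are of mean CPM plus 1 and cover cells chosen by correlated genes. spi1a, the second spi1 paralogue, was 10.1-fold higher and stood at 62.1, 70.0, 38.8 and 73.0 CPM. The interferon regulatory factor gene irf5, which acts downstream of Toll-like receptors, was at 54.5 ± 8.07 CPM against 8.69 ± 1.60 CPM.

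Signal genes were few. Of 24 chemokine ligand genes outside the rule, 20 were found in under 5% of the cells and 2 in at least 10%, ccl38.6 in 44 cells and cxcl19 in 39. Of 29 cytokine genes, 12 had no UMI and 3 passed 10% of cells: csf3b in 25 cells, il1b in 24 and tgfb1a in 23. After thinning, tgfb1a was in 4.17% of the selected cells and in 29.2% of endothelial-gene cells. Of 25 cytokine receptor genes, 16 passed 10% of cells, among them il10rb in 87.2% and ifngr2 in 61.5%. The chemokine receptor gene cxcr4b, which retains leukocytes in blood-forming tissue, was at 292, 570, 721 and 1041 CPM.

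The selected cells did not form a single group when the 15 genes of the rule were kept out of the clustering. Of the 195 cells, 117 fell into a cluster of 899 cells led by p2rx1, ccr9b, il2rb and gata3, 46 into a cluster of 173 led by lyz, npsn, lect2l and mpx, 20 into a cluster of 357 led by gata2b, spi2 and zeb2b, and 11 into a cluster of 358 led by cell cycle genes. With the genes of the rule kept in, 157 of the 195 gathered in a cluster of 259 cells led by ccl35.1, fcer1gl and sftpbb. Clustered on their own without the genes of the rule, the selected cells fell into 3 subgroups, named A (95 cells), B (67) and C (33) by size. Their leading genes were used to form them and are given as a description.

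Subgroup A was led by tppp, spi1a and cldni, and differed from B and C also in depth. It held 12, 30, 30 and 23 cells of the 4 libraries and had a median of 27971 UMIs per cell, against 14272 in B and 16518 in C. cxcr3.2 was at 350, 554, 338 and 607 CPM in A, and at 352, 193, 84.7 and 321 CPM in C, so that A was above C in 3 of 4 libraries. spi1a was at 83.6, 134, 54.2 and 126 CPM in A and without a UMI in all 67 cells of B and all 33 of C, which allows a share of cells with a UMI of up to 4.48% and 9.09% and does not limit the cells that express it at these lower depths. After thinning to 5000 UMIs, spi1a was in 34.8% of the cells of A and in 0% of B and C. The granulocyte colony-stimulating factor receptor gene csf3r was at 33.6 CPM in A, without a UMI in B and at 6.92 CPM in C. The chemokine ligand gene cxcl19, the coagulation factor gene f13a1b and the leukotriene receptor gene ltb4r were likewise concentrated in A, at 281, 52.8 and 59.9 CPM against at most 19.2, 0 and 1.73 CPM in B and C. Of the 95 cells, 46 lay in the cluster led by lyz and npsn, as did none of B or C. Some granulocyte-associated genes were also higher in the pooled cells of A. mmp9 was at 412 CPM against 16.4 in B and 151 in C, and lyz at 134 against 15.5 and 17.3. lect2l was at 30.9 CPM against 0 and 1.73. This did not hold in every library or for every such gene. By library mmp9 was at 106, 759, 254 and 314 CPM in A and at 320, 101, 33.9 and 366 CPM in C. In WT replicate 2 lyz was at 11.2 CPM in A, 19.9 in B and 15.8 in C. Pooled npsn was at 3.77 CPM in A, 8.21 in B and 1.73 in C. Macrophage genes differed among themselves. The thinned share with slc7a7 was 17.4, 4.48 and 0% in A, B and C, and that with mpeg1.1 14.1, 5.97 and 9.09%. That with slc40a1 was 1.09, 7.46 and 9.09%, and that with lgals9l1 2.17, 7.46 and 3.03%. All 5 cells with csf1ra lay in A, and mfap4 was in 8, 1 and 0 cells. Several other phagocyte genes were not highest in A. ncf1 was at 758 CPM in A, 534 in B and 1230 in C, the GTPase gene rac2 at 504, 638 and 542 CPM, and the thinned share with cybb was 20.7, 5.97 and 24.2%. The DNA replication gene pcna was at 207 ± 55.7 CPM in A and 95.0 ± 47.5 CPM in B, and mki67, a proliferation marker, at 105 ± 75.1 and 19.9 ± 16 CPM. In C, mki67 ranged from 17.9 to 237 CPM over the libraries.

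Subgroup B had the highest level of the ligand gene. It held 7, 30, 12 and 18 cells, all in the cluster led by p2rx1 and ccr9b. ccl35.1 was at 254, 525, 198 and 380 CPM in B, at 160, 87.1, 26.4 and 228 CPM in A and at 0, 28.4, 0 and 0 CPM in C, so that B was above A in every library. cxcr3.2 ran the other way, at 57.3, 93.5, 66.1 and 110 CPM in B, below A in every library. Both genes are in the rule, which favours cells that hold one gene in place of another, so this contrast is a description. B also held the paralogue cxcr3.1, at 65.5, 161, 55.0 and 193 CPM against 9.71 ± 6.37 CPM in A. Other leading genes of B were the chemokine receptor gene ccr2 (69.3 CPM in the pooled cells), the T-box transcription factor gene eomesa (46.5), the interleukin 10 receptor gene il10ra (77.6), id2a (266) and cd74b (116). Levels of ccr2 and id2a in B differed between libraries, at 24.6, 23.9, 132 and 128 CPM for ccr2 and 41.0, 203, 396 and 390 CPM for id2a. Differences between genotypes within a subgroup were not tested, and the test of ccr2 over all selected cells is given below.

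Subgroup C was led by gata3, p2rx1 and cd226. It held 2, 17, 6 and 8 cells, so that the values of WT replicate 1 rest on 2 cells. gata3 was at 224, 164, 339 and 134 CPM in C and at 2.82 ± 3.76 CPM in A. myb was at 800, 316, 703 and 375 CPM, above A and B in every library. The purinergic receptor gene p2rx1 (287 CPM in the pooled cells), the NK and T cell adhesion gene cd226 (84.8) and the transcription factor gene tox2 (388) also led C. Other genes of the progenitor and lymphoid lists did not follow. In the pooled cells runx1 was without a UMI in C and at 10.04 CPM in B, lmo2 was at 5.19 and 15.5 CPM, and il2rb at 39.8 and 38.3 CPM. rnaset2l was at 333 ± 284 CPM, and spi1b ranged from 96 to 1475 CPM. ccr9a was present at high level in all 3 subgroups, at 698 ± 217 CPM in A, 1644 ± 503 in B and 1324 ± 172 in C, as were csf1rb and cebpb, a transcription factor gene of myeloid maturation.

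**Figure D3:**
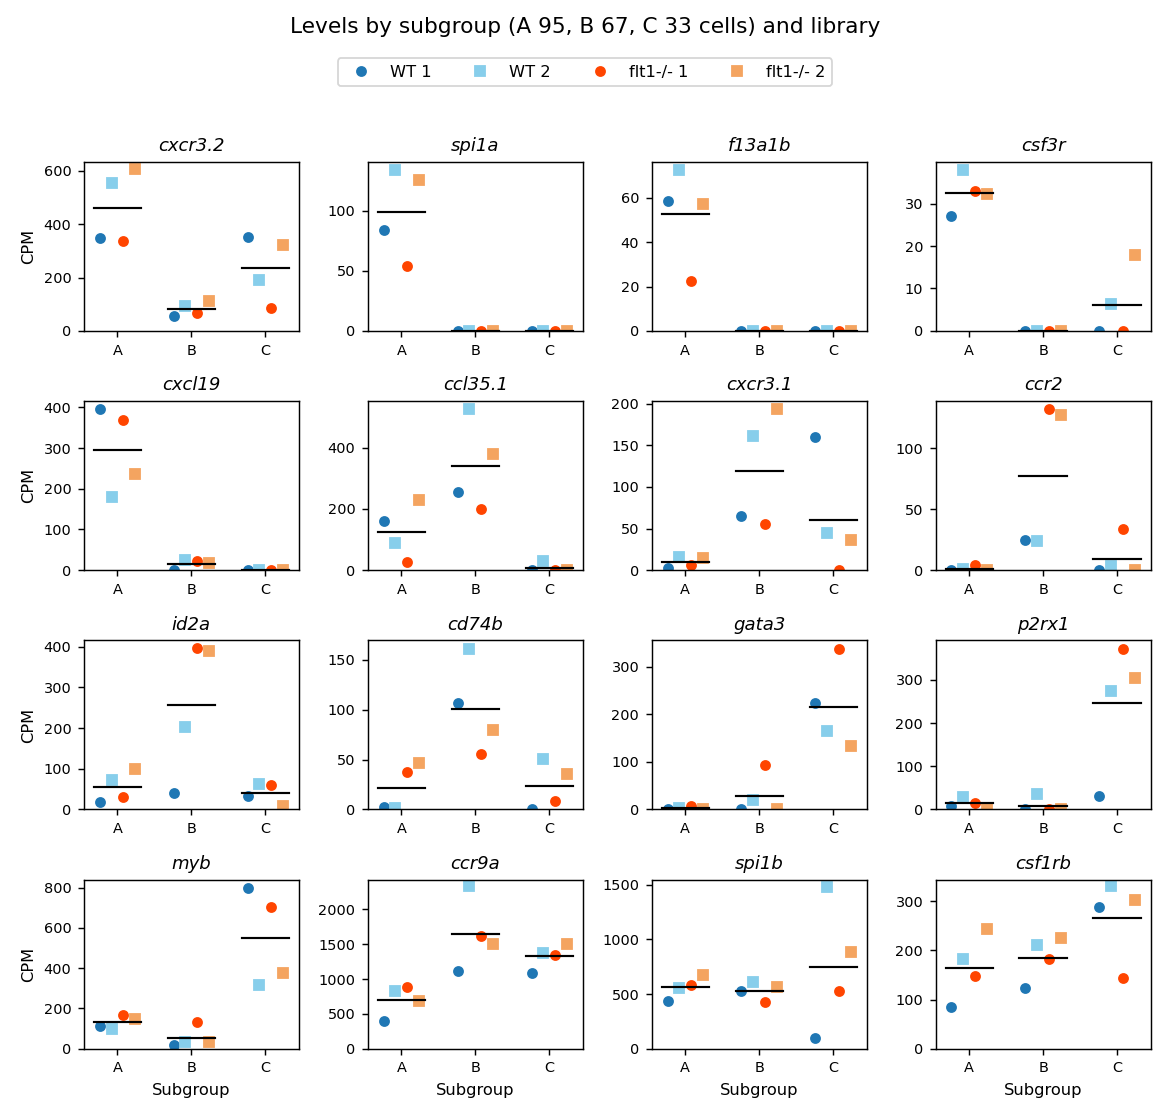
Levels of 16 genes in CPM by subgroup A, B and C, with 1 point for each library and a line at the mean of the 4 libraries, each panel on its own linear axis from 0. spi1a, f13a1b and cxcl19 lie in A, ccl35.1 and cxcr3.1 are highest in B, gata3 and p2rx1 in C, and ccr9a is present in all 3; C of WT replicate 1 rests on 2 cells.

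A UMI of both the ligand gene and the receptor gene was found in a minority of the selected cells. Alone here means that no UMI of the other gene was counted, and the subgroups differed in depth. Of the 195 cells, 43 held both ccl35.1 and cxcr3.2, 41 held ccl35.1 alone, 91 cxcr3.2 alone and 20 neither. Cells with ccl35.1 thus held cxcr3.2 about as often as not. The share with both, 22.1%, lay below the 29.6% that the separate shares would give if they were independent. It lay below in each library, at 19, 18.2, 22.9 and 28.6% against 30.6, 22.7, 29.5 and 40.1%. A rule that asks for a number of genes favours cells that hold one gene in place of another, so this comparison has no test. By subgroup, A had 30 cells with both, 3 with ccl35.1 alone and 62 with cxcr3.2 alone. B had 12, 37 and 8, with 10 that held neither, and C had 1, 1 and 21, with 10 that held neither. Between cxcr3.2 and cxcr3.1 the counts were 26 cells with both, 108 with cxcr3.2 alone and 26 with cxcr3.1 alone.

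**Figure D4:**
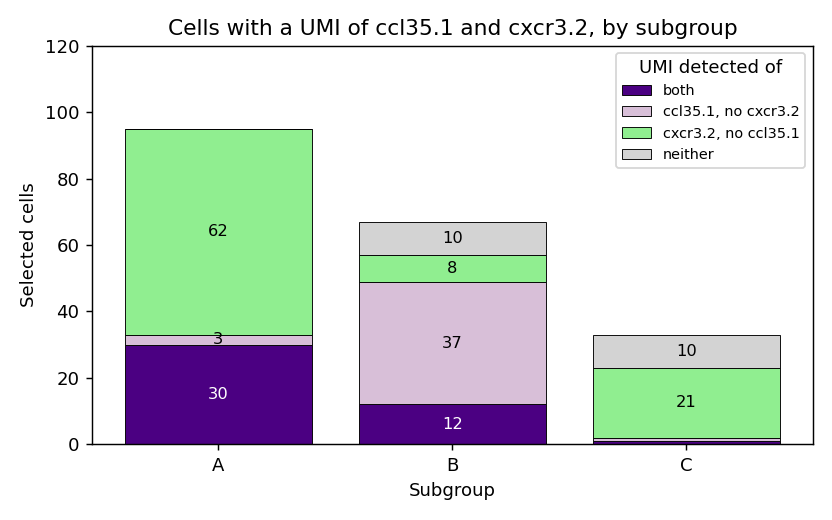
Number of selected cells (y axis, linear from 0) in each subgroup that held a UMI of both ccl35.1 and cxcr3.2, of only one of them or of neither; counts up to 2 carry no printed number. Most cells of A held cxcr3.2 without ccl35.1 (62 of 95) and most of B held ccl35.1 without cxcr3.2 (37 of 67).

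Whether loss of flt1 changed the number of these cells was asked first. In WT they made up 2.85% of the kept cells of replicate 1 (95% exact binomial interval 1.77 to 4.32) and 7.04% of replicate 2 (5.60 to 8.73). In flt1-/- they made up 2.32% (1.72 to 3.07) and 3.78% (2.81 to 4.97). The intervals cover counting error only. The mean was 4.95% ± 2.97 in WT and 3.05% ± 1.03 in flt1-/- (SD, n = 2 each), a difference of -1.89 percentage points (exact permutation test, two-sided, p = 0.667, where 2 against 2 cannot go below 0.333). The WT libraries differed from each other by more than the genotypes did, and without WT replicate 2 the difference was 0.203 points, with the opposite sign. The subgroups took overlapping shares of the selected cells in the 2 genotypes, with A at 57.1 and 39.0% in WT and 62.5 and 46.9% in flt1-/-. The share is of sorted cells, and the sort does not tell fewer myeloid cells from more GFP+ cells of other types.

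Expression was then compared between genotypes in the summed UMIs of the selected cells of each library, with edgeR's quasi-likelihood test. Of 5808 genes tested, 4 passed an adjusted p of 0.05, which is 0.0689%. Of them 3 were higher and 1 lower in flt1-/-. At an unadjusted p under 0.05 there were 382 genes, or 6.58%. The values of the genotypes did not overlap for 2207 of the 5808 genes, or 38%. Counts of these 5808 genes were also simulated. Changes of 1 log2 unit were recovered for 0% of the changed genes, of 2 units for 81% and of 3 units for 98%. Changes of 1 unit were thus not detectable with 2 libraries for each genotype. The simulated shares do not show that large changes in the measured cells were all found. Measured log2 changes of 3.82 for ccl38a.5, -3.3 for tnfb and -3.05 for il1b did not pass (edgeR adjusted p = 0.12, 0.206 and 0.263). The alternative tool DESeq2 did call ccl38a.5 (DESeq2 adjusted p = 0.000507), and its results for tnfb and il1b are given below. The 4 genes that passed changed by 3.37 units or more in either direction.

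The colony-stimulating factor gene csf3b, which encodes a growth factor for neutrophils, fell in flt1-/-. It was at 151 and 166 CPM in the WT libraries and at 14.2 and 15.6 CPM in the flt1-/- libraries (log2 change -3.46, SE 0.32, edgeR adjusted p = 0.00982). The genotypes were well apart. The transcript came from 5, 13, 4 and 3 cells, with up to 193 UMIs in a single cell of WT replicate 2, and without the highest cell of each library the levels were 88.5, 54.1, 2.91 and 2.16 CPM. Nearly all of it lay in subgroup A, and in the other kept cells csf3b was at 1.01, 2.96, 0.965 and 4.50 CPM. The other cytokine genes tested, il1b and tnfb, did not pass in edgeR. il1b was at 255 and 67.0 CPM in WT and 12.3 and 28.2 CPM in flt1-/- (log2 change -3.05, edgeR adjusted p = 0.263), and tnfb at 112 and 36 against 4.73 and 10.4 CPM (edgeR adjusted p = 0.206). DESeq2 called tnfb (adjusted p = 0.00194) and not il1b (adjusted p = 0.530).

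The glutathione transferase gene gsto2 rose. It was at 15.1 and 19.2 CPM in WT and at 156 and 223 CPM in flt1-/- (log2 change 3.37, SE 0.34, edgeR adjusted p = 0.00982). Of its 165 and 214 UMIs in the flt1-/- libraries, 163 and 201 were in subgroup A. In the other kept cells it was at 26.4 and 12.3 CPM in WT and 63.3 and 74.3 CPM in flt1-/-, so the libraries also differed outside the selected cells. When no granulocyte gene was allowed in a selected cell, its edgeR adjusted p was 0.834.

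The remaining genes that rose were without a UMI in both WT libraries. si:dkey-18p12.4, a gene known by a clone name, was at 0 and 0 CPM in WT and at 61.5 and 55.3 CPM in flt1-/- (edgeR adjusted p = 0.00982). The mean flt1-/- level was 45.0 times the 1.3 CPM that 3 UMIs over the WT group would give. This ratio allows for counting error in WT only, not for the spread between libraries. The transcript of si:dkey-18p12.4 was found in 24 of 48 and 23 of 49 flt1-/- cells, with at most 8 UMIs in a cell. The other kept cells of the same libraries showed the same contrast, at 0.168 and 0.0548 CPM in WT and 21.1 and 8.5 CPM in flt1-/-. inhbb, which encodes the activin beta B subunit, was at 0 and 0 CPM in WT and at 36.9 and 30.2 CPM in flt1-/- (edgeR adjusted p = 0.0475). Its mean flt1-/- level was 25.9 times the same 1.3 CPM, with the same limit. The other kept cells held 14.4 and 6.24 CPM of inhbb in WT and 57.5 and 23.1 CPM in flt1-/-. Whether differences of whole libraries, such as embryos of different clutches, had a part in these 3 increases was not tested.

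Of the next 5 genes by p, si:ch211-121a2.2 was at 23.5 and 4.66 CPM in WT and 492 and 257 CPM in flt1-/- (edgeR adjusted p = 0.0524), with 8.82, 17.4, 291 and 206 CPM in the other kept cells. The tetraspanin gene cd9b was at 1.68 and 9.33 against 78.6 and 73.0 CPM (edgeR adjusted p = 0.0623), with 83.6, 34.3, 300.5 and 156 CPM in the other kept cells. The histone-binding protein gene rbbp4 was at 134 and 113 against 32.2 and 31.3 CPM (edgeR adjusted p = 0.107). In the other kept cells rbbp4 was at 149 and 180 CPM in WT and 83.8 and 120 CPM in flt1-/-, also lower in both flt1-/- libraries. hist1h2a6 had the same adjusted p as rbbp4, and the UMIs of si:ch211-147m6.1 came from 1 cell in each library.

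**Figure D5:**
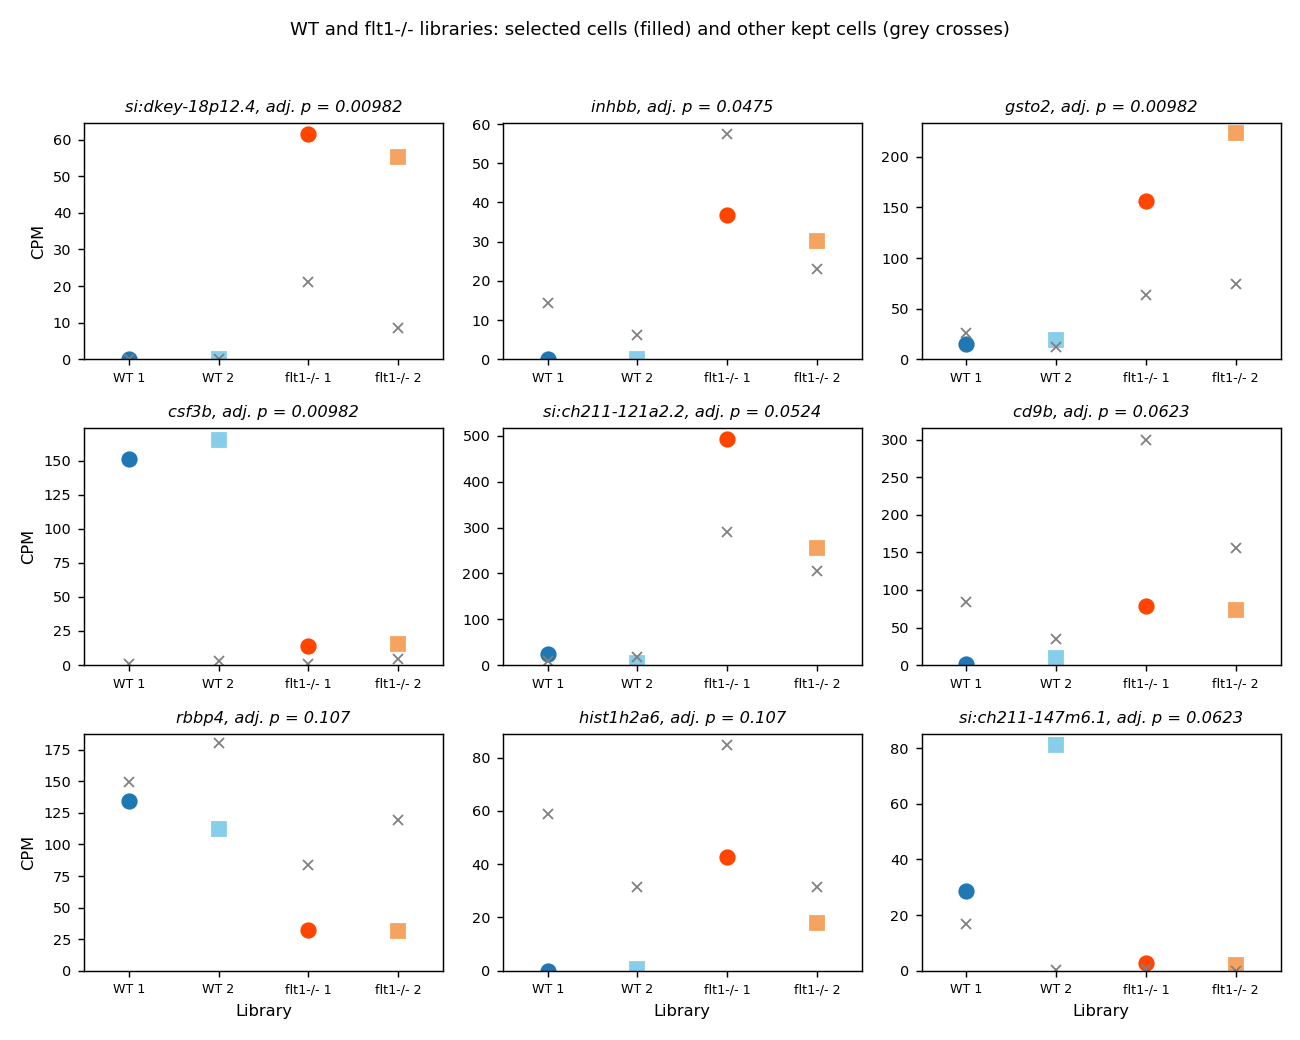
Levels in CPM, each panel on its own linear axis from 0, of the 4 genes past the threshold and the 5 with the next smallest p in the selected cells of each library (filled points) and in the other kept cells of the same library (grey crosses). csf3b is at 151 and 166 CPM in the WT libraries and 14.2 and 15.6 in the flt1-/- libraries. For gsto2, si:dkey-18p12.4, inhbb, si:ch211-121a2.2 and cd9b the crosses are also higher in both flt1-/- libraries, and for rbbp4 they are also lower in both.

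The 8 myeloid genes of the rule selected the cells in both genotypes, so their changes within the selected cells are given as a description and say nothing of whether they changed in the embryo. Their log2 changes ran from -1.06 for mef2b to 0.47 for ctss2.2. The log2 change was -0.41 (SE 0.55) for ccl35.1, 0.03 (SE 0.27) for cxcr3.2 and -0.75 (SE 0.24) for ncf1. Among genes outside the rule, ccr2, which stood out in subgroup B, had a log2 change of 2.49 (SE 0.48, edgeR adjusted p = 0.163, for 1 of the 2 gene identifiers with this symbol). None of the 6 NADPH oxidase genes (ncf1 of the rule included), the 8 macrophage genes tested or the 34 myeloid transcription factor genes tested passed. Of 3 cytokine genes 1 did, csf3b, given above. Over all genes tested 4 of 5808 passed, or 0.0689%, so the counts in such short lists say little about the lists. The median log2 change was -0.22 over the NADPH oxidase genes and -0.20 over the macrophage genes, beside 0.00 over all genes tested. Of 13 genes of the Vegf pathway, which flt1 restrains in endothelium, 5 had no UMI in the selected cells, all were in under 5% of them and 0 reached the count needed for a test.

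The number of genes called moved with the cells and the libraries used. With no upper limit on genes per cell (216 cells), edgeR called 0 genes, with 357 at an unadjusted p under 0.05 and 19 called by DESeq2. Leaving out WT replicate 1 or 2, or flt1-/- replicate 1 or 2, gave 114, 167, 34 and 42 calls. These fits have 1 library in an arm, which is assumed to vary like the libraries of the other genotype, so they do not show that the calls hold. When no granulocyte gene was allowed in a selected cell, si:dkey-18p12.4 alone of the 4 stayed called. inhbb had a log2 change of 7.11 (edgeR adjusted p = 0.180) and csf3b had too few UMIs to be tested. Without the cells of subgroup A, si:dkey-18p12.4 stayed called, inhbb had a log2 change of 7.54 (edgeR adjusted p = 0.0694), and csf3b and gsto2 had too few UMIs to be tested.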

How the data were processed

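GFP+ cells of WT and flt1-/- embryos were profiled by droplet 3′ RNA sequencing on the 10x Genomics platform (chemistry version 2 per the labels, version 3 in the study's methods). The authors made UMI counts per gene and cell with Cell Ranger 6.1.1 on GRCz11 and deposited them as whole, unnormalized counts of called cells. Cells were filtered by the authors' limits of 200 and 4500 genes and 5% mitochondrial UMIs. UMIs were summed over the cells of a class in each library and divided by all UMIs of those same cells (CPM). A symbol on several identifiers was summed, except in tests. Levels per cell class are means over libraries, and doublets were not removed. Cells were clustered in Seurat 5.3.0 (2000 variable genes, 20 components, resolution 0.5; selected cells alone, 1000 genes and 10 components). Genotypes were compared with edgeR 4.0.16 (filterByExpr, TMM, quasi-likelihood test, Benjamini-Hochberg over all genes tested), with DESeq2 1.42.0 as an alternative, and the script was tested on simulated data. Replicate numbers were not taken as pairs.

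The cells, gene lists and comparisons were chosen with earlier results of these data known. Named genes were the genes of the rule, list genes in at least 10% of selected cells or defining a class, the 25 with the highest ratio among genes in at least 25% of selected cells, and, for genotype, genes past the threshold and the 5 next smallest p. Not all are printed, and 1 gene is not reported here. Intervals are Clopper-Pearson at 95%. A count of 0 was taken to allow 3. Alternatives varied the rule, filters, normalization, tool, thinning, subgroups and libraries. No sequences or coordinates were analysed here.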

Additional observations from a re-analysis of the deposited data

How the results depend on the processing

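Against 4 genes called between genotypes by edgeR, DESeq2 called 20, no filter on low counts gave 103, a rule of at least 5 genes 13, and no upper limit on genes per cell 0. The fit with the replicate block gave 104. Deviations from the genotype means correlated at 0.31 between same-numbered libraries and at -0.31 in the other pairing. With 2 libraries for each genotype these values mirror each other by construction, so they cannot show a pairing. No label names a shared batch, and the numbers were not taken as pairs. Leaving out each library in turn gave 34 to 167 calls, in fits where the lone library of an arm is assumed to vary like those of the other genotype. Chosen after seeing the data, leaving out the cells of subgroup B gave 2 calls, of which si:dkey-18p12.4 was not one (edgeR adjusted p = 0.0879), and of subgroup C 8. The cause was not tested. Over 134 settings for the 9 genes named, each kept its direction. The genes were chosen by their p in these same libraries, and settings where a gene was not tested are not counted, so this is no independent check. si:dkey-18p12.4 and inhbb had no UMI in WT, which nearly fixes their sign. The log2 change of hist1h2a6 fell from 5.79 to 0.715 with a rule of at least 3 genes. The edgeR adjusted p of inhbb ran up to 0.277 and that of csf3b up to 0.0771. The difference in share of cells ran from -3.99 to 0.203 points over the settings that left out a library, the latter without WT replicate 2, and kept its direction under the other settings.

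After thinning to 1000 UMIs, the list genes found in at least 10% of cells numbered 0 for macrophages against 4, 2 for dendritic cells against 6, 1 for neutrophils against 8 and 1 for T, NK or innate lymphoid cells against 5. The share with ccr9a was 59.5%, 82.5% and 92.2% after thinning to 1000, 2000 and 5000 UMIs. At resolution 1 subgroup A split into 48 cells and the rest, while 95.5% of B and 97.0% of C stayed together. With 2 libraries for each genotype and at most 77 selected cells in a library, a log2 change of 1 was not detectable.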
